A study of Mus musculus with 8 samples.

Results

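R-loop peaks were examined in 29 genes of the DNA damage response, chosen by name for their roles in sensing breaks, signalling, repair and the p53 response. The choice was made with earlier results of these data known. A peak was assigned to a gene when its summit lay within the gene's bounds on the mouse assembly GRCm38, extended by 1 kb at either end. These genes are 29 of the 34610 protein-coding and lncRNA genes on the main chromosomes of the RefSeq table. They held 8 of 24009 young and 10 of 16198 aged peaks. The cells were haematopoietic stem cells sorted from mouse bone marrow as lineage-negative, Sca1-positive, cKit-positive and CD34-negative, and freshly isolated from young or aged animals. The S9.6 antibody, which binds DNA:RNA hybrids, was used to pull down R-loops for strand-specific sequencing (ssDRIP-seq). There were 2 immunoprecipitated libraries and 2 input libraries without antibody per age. The labels give no strain, sex, age in months or number of animals, and name no treatment. Each age has 1 combined peak list per strand, so no replicate error exists and no difference between ages could be tested. No RNA was measured, so the sorted cell type could not be set against marker genes.

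When DNA breaks or replication stalls, the kinases ATM, ATR and DNA-PK mark the site, and they pass the signal to CHK1, CHK2 and p53. The MRE11-RAD50-NBN complex and the Ku heterodimer bind broken ends, RPA coats single-stranded DNA, and phosphorylated H2AX draws MDC1, RNF8, RNF168, 53BP1 and RIF1. R-loops, DNA:RNA hybrids that leave the other DNA strand unpaired, are a known source of replication stress, and long-lived blood stem cells depend on this response. The peaks below are S9.6 pull-down signal on the DNA of these genes and are called R-loop peaks here. No library treated to remove hybrids is among the samples, so which peaks are hybrids was not tested. The peaks say nothing about the amount or activity of the proteins.

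DNA damage response genes carried R-loop peaks at shares close to those of all genes, and each summit held few reads. A peak lay in 5 of the 29 genes in young cells (17.2%, 95% exact binomial interval 5.85 to 35.8) and in 6 in aged cells (20.7%, 7.99 to 39.7). Of all genes 19.8% had a young and 16.1% an aged peak, inside those intervals. The intervals give each gene the same chance of a peak, although longer genes held peaks more often. The shares of all genes of their lengths give 7.12 genes in young and 5.69 in aged. Prkdc, Trp53bp1 and Xrcc5 had a peak in both ages, 3 of 29 against 7.87% of all genes. Mre11a and Rpa2 had one in young only, against 12% of all genes, and Atm, Atr and Rnf168 in aged only, against 8.19%. The other 21 genes had none. Those were Chek1, Chek2, Nbn, Rad50, H2ax, Mdc1, Rnf8, Rif1, Rpa1, Rpa3, Parp1, Xrcc1, Xrcc6, Mdm2, Cdkn1a, Ccng1, Bbc3, Bax, Gadd45a, Gadd45b and Gadd45g. Binomial and Poisson intervals given here cover counting error only. The reads are not known to be independent molecules.

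The fold of a peak is the authors' ratio of immunoprecipitated pileup to local background at the summit, with 1 added to both, so it is smaller than the plain ratio of reads to background. The whole number of reads behind it was recovered from the deposited fold and p. In the 29 genes the summits held 6 to 13 reads in both ages, with a median of 9.5 in young and 7 in aged. Peaks in all genes had a median of 8 reads in either age. The folds ran from 3.14 to 7.13 in young and from 4 to 6.51 in aged. Their medians were 5.07 in young and 4.32 in aged, beside 4.80 and 4.73 for peaks in all genes. At a −log10 q of at least 5, Mre11a and Rpa2 remained in young and Xrcc5 in aged, 2 and 1 of 29 genes, where 3.61% and 4.26% of all genes remained.

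**Figure D1:**
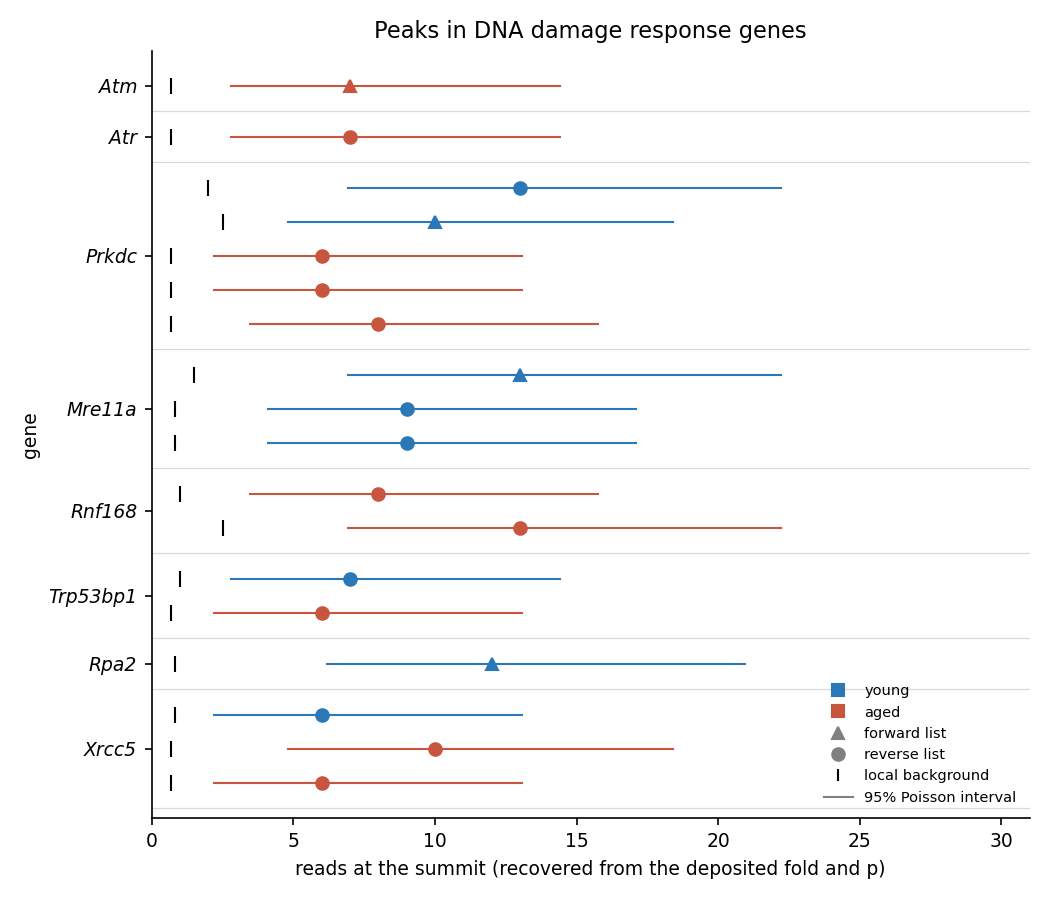
Reads at the summit of each of the 18 peaks in DNA damage response genes (horizontal axis, reads), grouped by gene; blue is young, red is aged, triangles are the forward list and circles the reverse list. Lines are 95% Poisson intervals on the reads and black ticks the local background. All summits hold 6 to 13 reads, and the intervals of young and aged peaks overlap in each gene that has both. The reads are not scaled for the different backgrounds of the lists.

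Among the kinases, Atm and Atr had a peak in aged cells only. Atm encodes the kinase activated by double-strand breaks. Its forward-strand peak held 7 reads (95% Poisson interval 2.81 to 14.4) over the plain genome background of 0.689, a fold of 4.74 (chromosome 9, 53448749 to 53448941). It lay in the interior, 87829 bp after the listed start. Atr encodes the kinase recruited to RPA-coated single-stranded DNA, and its reverse-strand peak also held 7 reads, with a fold of 4.73 (chromosome 9, 95871322 to 95871526). No young peak lay in either gene. The nearest young summits were 15378 bp from the Atm summit and 49538 bp from the Atr summit. The Atm neighbour, a reverse-strand peak of 7 reads, lay 3.66 kb outside the gene. Chek1 and Chek2, the effector kinase genes, held no peak. With Prkdc, 1 of the 5 kinase genes had a peak in young and 3 in aged. The shares of all genes of their lengths give 2.03 and 1.63.

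Prkdc, the longest of the 29 genes at 205 kb, held 5 peaks and the only site found in both ages. It encodes the catalytic subunit of DNA-PK, the kinase of non-homologous end joining. At the common site the young reverse-strand peak (chromosome 16, 15728579 to 15728798) had 13 reads (6.92 to 22.2) over a local background of 2.0. The aged peak (15728518 to 15728704) had 6 reads (2.20 to 13.1) over 0.690, with its summit 132 bp away. The fold was 4.67 in young and 4.14 in aged, while the plain ratio of reads to local background had the opposite order, 6.5 and 8.70. The read intervals overlapped, so no order is read from this site. Aged cells had further reverse-strand peaks of 6 reads (15705597 to 15705782) and of 8 reads (15732474 to 15732741). Young cells had a forward-strand peak of 10 reads over a raised background of 2.5, with a fold of 3.14 (15772375 to 15772582). All 5 summits lay between 68.3 and 135 kb from the gene's lower bound. A further young reverse-strand peak of 11 reads lay beyond its upper bound, just outside the 1 kb margin, and was not counted.

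The MRN complex had peaks in young cells only, all in Mre11a, which encodes its nuclease. A forward-strand peak held 13 reads over 1.5 (fold 5.60; chromosome 9, 14803301 to 14803521). Both reverse-strand peaks held 9 reads (4.12 to 17.1) over 0.825, with a fold of 5.48 (14807544 to 14807726 and 14824381 to 14824602). The closest aged summit to any of them lay 97966 bp away. Rad50 and Nbn, its structural and adaptor subunit genes, had no peak in either list. Of the 3 genes of the complex, 1 had a peak in young and 0 in aged. The shares of all genes of their lengths give 1.1 and 0.854.

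Of the genes that mark and read broken chromatin, Rnf168 and Trp53bp1 carried peaks, and in aged cells both had one near a transcript start. RNF168 is the ubiquitin ligase that modifies H2A at breaks, and 53BP1, encoded by Trp53bp1, is the reader that favours end joining. Rnf168 held a reverse-strand aged peak of 8 reads (3.45 to 15.8) over 1, whose summit lay 748 bp after the listed start (fold 4.50; chromosome 16, 32278175 to 32278375). A second aged peak, 14842 bp after the start, had 13 reads over a raised background of 2.5 and a fold of 4. Trp53bp1 had an aged peak of 6 reads over 0.690, with the summit 326 bp after the listed start (fold 4.14; chromosome 2, 121271053 to 121271244). Its young peak lay 62784 bp from there, with 7 reads over 1 and a fold of 4 (121208266 to 121208482). The start listed for Trp53bp1 is an inner one, 25 kb inside the outermost gene bound. H2ax, Mdc1, Rnf8 and Rif1 held no peak. In this group 1 of 6 genes had a peak in young and 2 in aged, beside 1.65 and 1.35 from the shares of all genes of their lengths.

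A summit within 1 kb of a listed start was thus found in 2 of the 24 DNA damage response genes with a listed start in aged cells and in 0 in young cells. Of all 27025 such genes, 1.79% had one in aged and 2.25% in young. Of the further genes described below, 70 have a listed start, and 1 had such a summit in each age. No excess is read from the 2 genes. Neither the Rnf168 nor the Trp53bp1 peak reached into the window from 250 bases before to 50 bases after the start, and no peak of either age or strand overlapped that window in any of the 24 genes. The 250 bases before both starts are shown because these were the starts nearest to a peak. They are from RefSeq (GRCm38.p6), written 5′ to 3′ on the gene's own strand. Capitals mark runs of 4 or more G, or of 4 or more C (GGGG searched on both strands), the kind of guanine cluster linked to R-loop formation.
Trp53bp1, chr2:121271408-121271657, minus strand: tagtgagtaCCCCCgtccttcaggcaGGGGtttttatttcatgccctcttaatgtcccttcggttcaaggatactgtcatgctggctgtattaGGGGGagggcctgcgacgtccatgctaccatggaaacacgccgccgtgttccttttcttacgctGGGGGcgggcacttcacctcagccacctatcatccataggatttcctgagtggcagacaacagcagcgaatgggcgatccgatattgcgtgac
Rnf168, chr16:32277211-32277460, plus strand: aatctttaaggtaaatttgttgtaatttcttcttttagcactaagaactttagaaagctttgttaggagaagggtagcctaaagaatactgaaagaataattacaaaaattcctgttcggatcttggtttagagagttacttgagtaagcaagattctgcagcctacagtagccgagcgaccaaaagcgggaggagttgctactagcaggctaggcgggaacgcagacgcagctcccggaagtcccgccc
The Trp53bp1 window held 4 such runs at a GC content of 54.4%, and the Rnf168 window held 0 at 43.6%. A run occurred in 24 of the 27 windows of DNA damage response genes (88.9%) and in 83.1% of all 32851 windows, so it is common in either set. A match describes the letters and is not evidence of an R-loop there.

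Rpa2, which encodes the middle subunit of the single-strand binding complex RPA, held the highest fold of the 29 genes. Its 1 young forward-strand peak had 12 reads (6.20 to 21.0) over the plain background of 0.823, a fold of 7.13 and a −log10 q of 6.89 (chromosome 4, 132775672 to 132775885). Rpa2 is also the shortest of the genes with a peak, at 10.4 kb, and the summit lay 7406 bp after the listed start. The nearest aged summit was 140602 bp away. Rpa1 and Rpa3 had no peak. Of the 3 RPA genes, 1 thus had a peak in young and 0 in aged, beside 0.572 and 0.45 from the shares of all genes of their lengths.

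Xrcc5, which encodes the larger Ku subunit Ku80, held 3 reverse-strand peaks at 3 different sites. The aged peak at chromosome 1, 72324075 to 72324317, had 10 reads (4.80 to 18.4) over 0.690, a fold of 6.51 and a −log10 q of 5.74. By fold and q it was the strongest aged peak of the 29 genes, though an Rnf168 peak had more reads over a higher background. A second aged peak (72371241 to 72371424) had 6 reads and a fold of 4.14. The young peak (72350284 to 72350472) had 6 reads over 0.825 and a fold of 3.83. It lay 20954 bp from the nearest aged summit. Xrcc6, the gene of the partner subunit Ku70, had no peak, and neither had Parp1 or Xrcc1, which act at single-strand breaks. Of the 2 Ku genes, 1 had a peak in each age, beside 0.736 in young and 0.57 in aged from the shares of all genes of their lengths. For Parp1 and Xrcc1, with 0 of 2 in each age, those shares give 0.52 and 0.407.

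None of the 8 p53-responsive and growth arrest genes held a peak. These genes are short, with a median of 5.98 kb, and the shares of all genes of their lengths give 0.515 such genes in young and 0.423 in aged. Cdkn1a encodes the cell cycle inhibitor p21, Mdm2 the ubiquitin ligase of p53, Ccng1 cyclin G1, and Bbc3 and Bax pro-apoptotic BCL2-family proteins. The 3 Gadd45 genes encode stress-induced growth arrest proteins. Outside the 1 kb margin, a much stronger site lay 3.69 kb below Bbc3, which is upstream because the gene lies on the plus strand. Its aged reverse-strand peak (chromosome 7, 16304611 to 16304804) had 23 reads (14.6 to 34.5), a fold of 13.9 and a −log10 q of 22.9. The young reverse-strand peak (16304611 to 16304803) started at the same base and had 13 reads (6.92 to 22.2) and a fold of 7.67. An aged forward-strand peak of 16 reads covered the site as well (fold 10.1), and no young forward-strand peak did. The read intervals of both ages overlapped on the reverse strand, but they are not scaled for the genome background, 0.690 in aged and 0.825 in young. The reads were 33.3 times that background in aged and 15.8 times in young, and no difference was tested. This site was singled out after its values were seen. An aged peak of 5 reads lay 2.86 kb from Gadd45a, in the extended gene E230016M11Rik, and a young peak of 10 reads over 2.0 lay 3.08 kb from Bax.

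**Figure D2:**
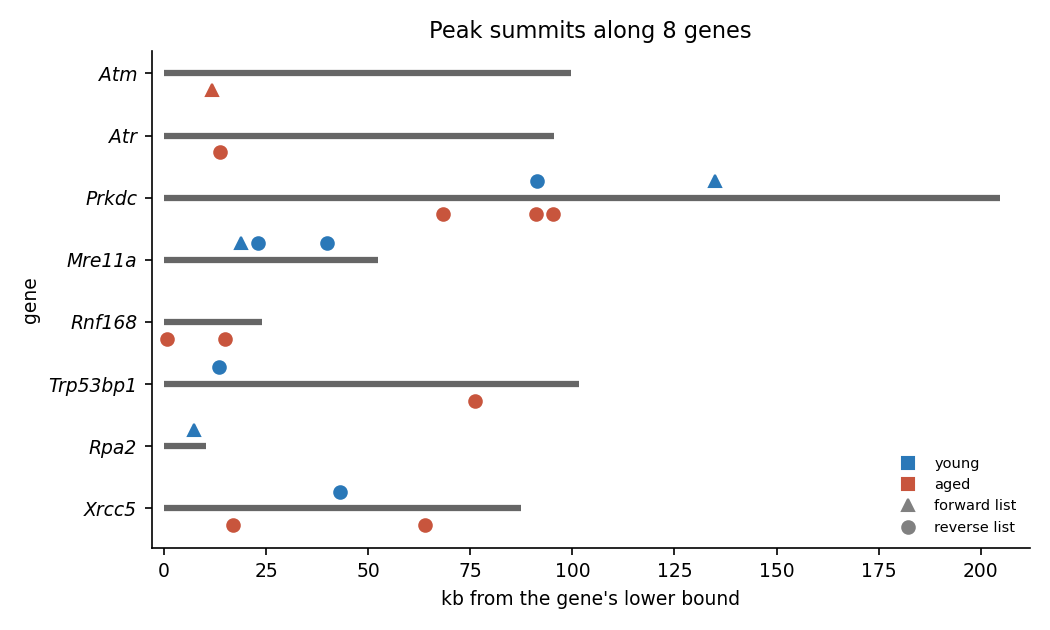
Summits along the 8 DNA damage response genes with a peak (horizontal axis, kb from the lower gene bound; grey bars are the gene bodies). Young summits are blue and above the bar, aged summits red and below it, with triangles for the forward and circles for the reverse list. Only the Prkdc site at about 91.1 kb in aged and 91.3 kb in young coincides, and Rnf168 has an aged summit 0.748 kb from its bound.

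Only 1 of 8 young and 1 of 10 aged peaks in these genes, the Prkdc pair, met a peak of that strand in the other age's list. Those shares are 12.5% (0.316 to 52.7) and 10% (0.253 to 44.5), and peaks in all genes gave 7.05% and 9.98%. Trp53bp1 and Xrcc5 had peaks in both ages without sharing a site. No peak overlapped one of the opposite strand, and with 8 and 10 peaks that allows shares of up to 36.9% in young and 30.8% in aged (exact binomial). In all genes 1.49% and 8.81% of peaks did. By strand, 9 of the 10 aged peaks were on the reverse list (90%, 55.5 to 99.7) and 5 of the 8 young peaks (62.5%, 24.5 to 91.5). In all genes 50.2% and 50.4% were, and in the 92 further genes described below 48.1% and 40.6%. The intervals take peaks as independent, while Prkdc, Rnf168 and Xrcc5 each gave more than 1 of the aged reverse-strand peaks. Where the gene's own strand was known, 1 of 7 aged and 3 of 6 young peaks were on the list named as the gene's strand, against 53.4% and 46.7% in all genes. Which strand the forward list stands for is not stated. Of the aged peaks 8 of 10 lay at the plain genome background, and of the young peaks 4 of 8, where all genes gave 55.5% and 53.1%.

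Gene length went with the presence of a peak. The 8 genes with one in either age had a median length of 91.6 kb and the 21 without one of 18.2 kb. Of the 9 genes over 50 kb, 6 held a peak in either age, and of the 20 shorter ones 2 did. No share of all genes was taken at 50 kb, so that split is not read as particular to these genes. In all genes under 10 kb the shares with a peak were 5.18% in young and 4.30% in aged, and none of the 9 DNA damage response genes of this length had one. From 10 to 30 kb the shares were 15.2% and 12.2%, and 1 of 7 had a peak in each age (Rpa2 in young, Rnf168 in aged). From 30 to 100 kb they were 36.8% and 28.5%, and 2 of 11 had a young and 3 of 11 an aged peak. Over 100 kb they were 77.3% and 65.4%, and both Prkdc and Trp53bp1 had peaks in both ages. Applied to the lengths of the 29 genes, these shares give 7.12 genes in young and 5.69 in aged, beside the 5 and 6 found. Per length of DNA, the genes held 6.66 young and 8.32 aged summits per Mb, and all protein-coding genes 9.12 and 6.45. The counts behind the first pair are 8 and 10 summits in 1.20 Mb.

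**Figure D3:**
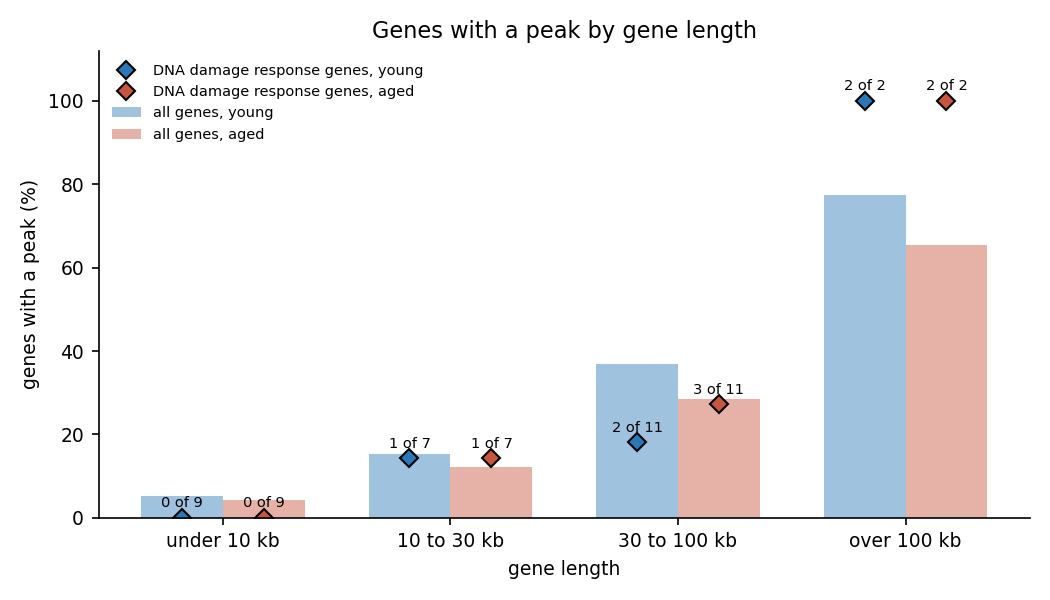
Genes with a peak (vertical axis, percent) by gene length, for all genes (bars) and for DNA damage response genes (diamonds, with their counts), young in blue and aged in red. In both ages the bars rise with length, from 5.18% and 4.30% under 10 kb to 77.3% and 65.4% over 100 kb.

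The lists show only what passed the authors' threshold. At the plain genome background the weakest listed peak had 6 reads in young and 5 in aged, where that background was 0.823 to 0.825 and 0.689 to 0.690 reads. A gene without a peak may therefore hold R-loops below these levels, which were not detectable at this depth. The young and aged thresholds differ by 1 read, and several peaks here, as at Xrcc5 and Trp53bp1, lay at or within 1 read of it.

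A further 92 genes of checkpoint signalling, repair and the p53 response gave a similar picture. These genes were read from the same peak lists and chosen with earlier results of these data known, so they are not independent support. A peak lay in 21 of them in young (22.8%, 14.7 to 32.8) and in 19 in aged (20.7%, 12.9 to 30.4), and the length shares give 20.9 and 16.7. In 8 of the 92 genes both ages had a peak, against 7.87% of all genes. In 13 only young had one, against 12%, and in 11 only aged, against 8.19%. Mdm4, which encodes the p53 inhibitor that pairs with MDM2, had the strongest. Its forward-strand peak had the same bounds in both ages (chromosome 1, 133027970 to 133028171), with 13 reads (6.92 to 22.2) and a fold of 7.68 in young and 17 reads (9.90 to 27.2) and a fold of 10.7 in aged. That pair was the only overlap between the ages in these genes, and the extended bounds of a second gene also hold the site. It makes 1 of 32 young peaks (3.12%, 0.0791 to 16.2) and 1 of 27 aged peaks (3.7%, 0.0937 to 19.0). Peaks in all genes gave 7.05% and 9.98%. An aged reverse-strand peak of 9 reads lay 248 bp after a listed Mdm4 start. In the same subgroup, where 4 and 3 of 21 genes had a peak beside 4.32 and 3.39 from the length shares, Zmat3 had a young peak of fold 6.58, and Aen and Apaf1 had aged peaks of 4.74.

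Homologous recombination genes had the widest gap between ages, with a peak in 7 of 11 in young and in 2 of 11 in aged, beside 3.56 and 2.90 from the length shares. All 11 young peaks held 7 to 13 reads, and at a −log10 q of at least 5 the counts were 2 and 1 genes. This subgroup was singled out after the counts of all subgroups were seen. The young lists hold 24009 peaks and the aged lists 16198, and no count at equal list length is given for it. Xrcc2 had a young peak of 13 reads and fold 7.67. Rad51b had 4 peaks in each age, with top folds of 6.96 in young and 7.10 in aged at different sites. The resection factor gene Rbbp8 had an aged peak of 4.74 and a young peak of 4.38. The young Rbbp8 summit lay 549 bp outside the gene and counts only through the 1 kb margin. In end joining 2 and 3 of 7 genes had a peak, beside 2.22 and 1.85. There the ligase cofactor gene Xrcc4 had a young fold of 7 and an aged fold of 5.92 at different sites. Nhej1 had an aged peak of 13 reads and fold 8.28, and Dclre1c, the Artemis nuclease gene, had folds of 4 (7 reads) in young and 4.50 (8 reads) in aged. The checkpoint subgroup had a young peak in Cdc25a (4.39) and aged peaks in Etaa1 and Rad1 (4.14 each), with 1 and 3 of 14 genes beside 2.67 and 2.12 from the length shares. Among chromatin and ubiquitin genes, 4 and 5 of 13 had a peak, beside 3.72 and 2.89, with Uimc1 (6.15) and Usp28 (5.49) leading in young. In aged, Shld2 (fold 5) led, ahead of Bard1 and Paxip1 (4.14 each). Shld2 also had a young peak of fold 5.48, and Usp28 an aged peak of fold 4. The young Uimc1 summit lay 414 bp before the listed start. In base excision repair 1 of 14 genes had a peak in each age, beside 1.76 and 1.40 from the length shares, Aptx (3.83) in young and Lig1 (3.55) in aged. Nucleotide excision repair had 2 of 12 in each age, beside 2.69 and 2.12, Ercc3 (4.39) and Ercc5 (3.20) in young, and Ercc3 and Ercc6 (4.14 each) in aged.

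**Figure D4:**
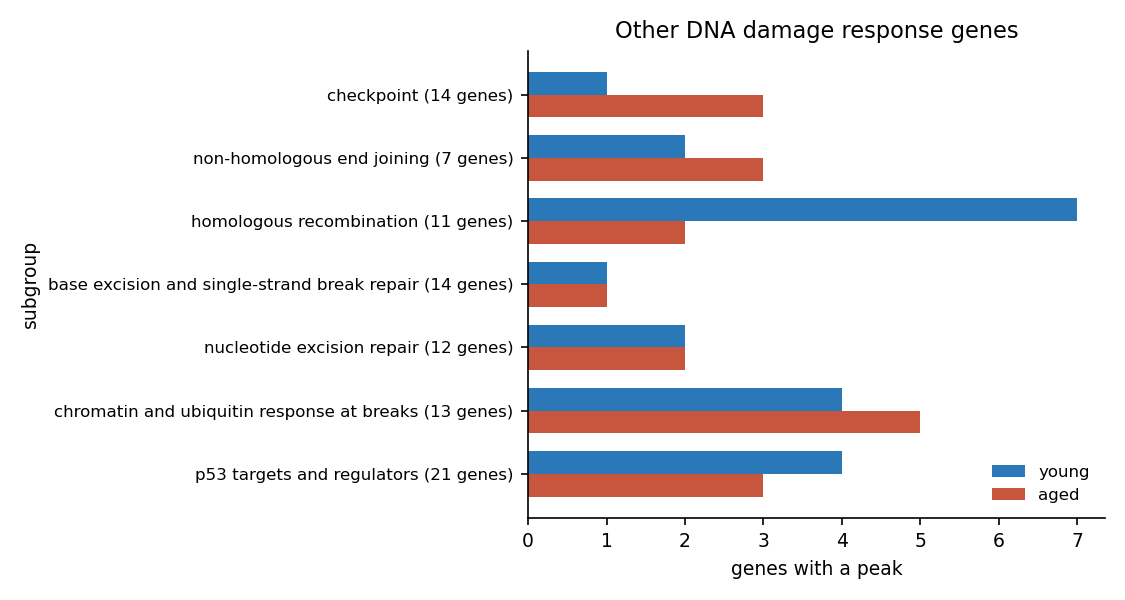
Number of the other DNA damage response genes with a peak (horizontal axis, genes) in each subgroup, young in blue and aged in red; the number of genes in each subgroup stands beside its name. Homologous recombination genes have 7 in young and 2 in aged, and the remaining subgroups differ by at most 2 genes.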

How the data were processed

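There are 4 deposited lists of peaks, 1 for every combination of age and strand, and they combine the replicates. Per the submitters' processing notes reads were handled with MACS3 3.0.0b1, Bowtie2 2.4.4, deepTools 3.5.1 and Trim Galore on GRCm38; for settings, duplicates and the use of the inputs, nothing is given in the sources used here. Each deposited line gives a fold (a ratio over local background), a −log10 p-value, a −log10 q-value and a score that was not used. Reads at a summit were recovered by solving fold and p for a whole number of reads and a background, as MACS defines them; −log10 p was matched within 0.1% for all peaks, and the step was tested on simulated data. The files give no read totals, so depth is known only through this background. A local background up to 1.01 times the most frequent level of a list counts as the plain genome background.

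Genes came from RefSeq GRCm38.p6 (34610 on chromosomes 1 to 19, X and Y), and starts from its promoter table, which lists 24 of the 29 genes. Its 250 upstream bases per start were searched. Overlap meant at least 1 bp on the same strand. The members, the 92 further genes and the steps were chosen with earlier results of these data known. Every member with a peak is named; of the further genes, up to 2 per subgroup and age with the highest fold, with ties and the Bbc3 site added. A gene was left out of the further list and is not reported here. Samples were grouped by their titles. No test between ages was run. Alternatives were stricter peaks, equal list lengths, other gene margins, any overlap, plain background only, and other definitions of shared peaks. The software was scipy 1.17.1, pandas 2.3.3, numpy 2.4.6 and, for plots, matplotlib 3.10.9 under Python 3.11.15.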

Additional observations from a re-analysis of the deposited data

How the results depend on the processing

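The counts are small, and 12 of 32 alternative values lay more than 1.5 times from the reported one. The number of the 29 genes with a peak was 5 in young and 6 in aged. It was 2 and 1 under the stricter −log10 q (5 or more), and 2 and 2 at a fold of 5 or more. Of all genes 8.47% and 7.37% had a peak of that fold. In young the number was 3 with each list cut to the 8088 peaks of the shortest. It was 8 with gene bounds extended by 5 kb, and 3 with peaks at the plain genome background only. In aged it was 6, 8 and 5. All genes gave 14.9%, 25% and 12.7% in young and 16%, 20.5% and 10.6% in aged. The 5 kb margin added Atm, Bax and Bbc3 in young and Bbc3 and Gadd45a in aged. The stricter q left 1.66 young and 0.832 aged summits per Mb, and lists of equal length 4.16 young ones. Of the 92 further genes, 6 in young and 3 in aged had a peak that passed the stricter q, where 3.61% and 4.26% of all genes did. At that threshold the order of the ages turned for the 29 genes. With lists of equal length it turned for the further genes, from 21 young and 19 aged to 14 and 19. Gene bounds without extension, any overlap of peak and gene, and the other definitions of shared peaks and of peaks on both strands left each count within 1.5 times. No paired analysis was possible because the lists combine the replicates of each age; leaving out a replicate could not be done for the same reason.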
